A study of Bos taurus with 3 samples.

Results

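The cells described here were newborn calf rumen epithelial cells that carried transcripts of *RGS4*, *PLAC8* and *HPGD* together. They numbered 1067 of 21884 epithelial cells and of 26020 kept barcodes in all. A barcode was kept with 500 to 4000 detected genes, at most 50000 unique molecular identifiers (UMIs, each counting one captured transcript) and at most 40% of its UMIs in the mitochondrial coding genes. It counted as epithelial with at least 10 *KRT5*, *KRT14* and *KRT15* UMIs per 10000 and no UMI of *PTPRC* (leukocytes), *PECAM1* (endothelium) or *COL3A1* (fibroblasts). Members were chosen by their measured UMIs: each had a UMI of all 3 genes, with *IL1R2* under 5, *KRTDAP* under 10 and the chemokines *CXCL2*, *CXCL3*, *GRO1* and *CCL20* together under 10 per 10000. Epithelial cells within the same limits but with none of the 3 genes, 7207 in number, were the main comparison.

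The samples were rumen tissue of 3 newborn Holstein calves, taken 1 day after birth, with no treatment or altered genotype. The outer muscle was stripped, the tissue was digested, and 1 library per calf was made with a 3′ droplet kit. The files held 7529, 12043 and 11656 barcodes in calves 1, 2 and 3, and the epithelial cells had median depths of 10324, 6798 and 8034 UMIs. The groups compared came from the same calves, so each comparison was made within calf (n = 3 calves).

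The rumen is lined by a stratified squamous epithelium in which basal cells attach to a basement membrane and divide, and their descendants differentiate and cornify as they move to the surface. RGS4 shortens signalling of G protein-coupled receptors by speeding the GTPase activity of their alpha subunits. HPGD oxidises and thereby inactivates prostaglandins. PLAC8 is a small cysteine-rich protein first described in placenta. CA3 is a carbonic anhydrase, and DCN, decorin, is a collagen-binding proteoglycan usually associated with fibroblasts.

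Members made up 362 of 4637 epithelial cells in calf 1 (7.81%, 95% Clopper-Pearson interval 7.05 to 8.62), 450 of 9122 in calf 2 (4.93%, 4.50 to 5.40) and 255 of 8125 in calf 3 (3.14%, 2.77 to 3.54). The mean share was 5.29% ± 2.35 (SD, n = 3), and no interval overlapped another. The intervals cover counting error only. After thinning each cell to 2000 UMIs, 15, 32 and 17 cells still carried all 3 genes, or 0.334%, 0.360% and 0.214% of the cells deep enough to be thinned. The share therefore depended on depth, and after thinning the intervals of the 3 calves overlapped.

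The values of *RGS4*, *PLAC8* and *HPGD* chose the members and are given as a description. *RGS4* stood at 1.86, 2.49 and 1.81 UMIs per 10000 in the members of calves 1, 2 and 3. *PLAC8* stood at 1.90, 2.14 and 1.69. *HPGD* was at 1.90 and 2.12 in calves 1 and 2 but at 4.34 in calf 3. Calf 3 was also the high calf for *HPGD* among all its epithelial cells within the limits: 36.1% had a UMI after thinning, against 11% and 13% in calves 1 and 2. In calf 3, 2964 of 5854 cells within the limits carried exactly 1 of the 3 genes, and only 24.8% carried none.

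**Figure D1:**
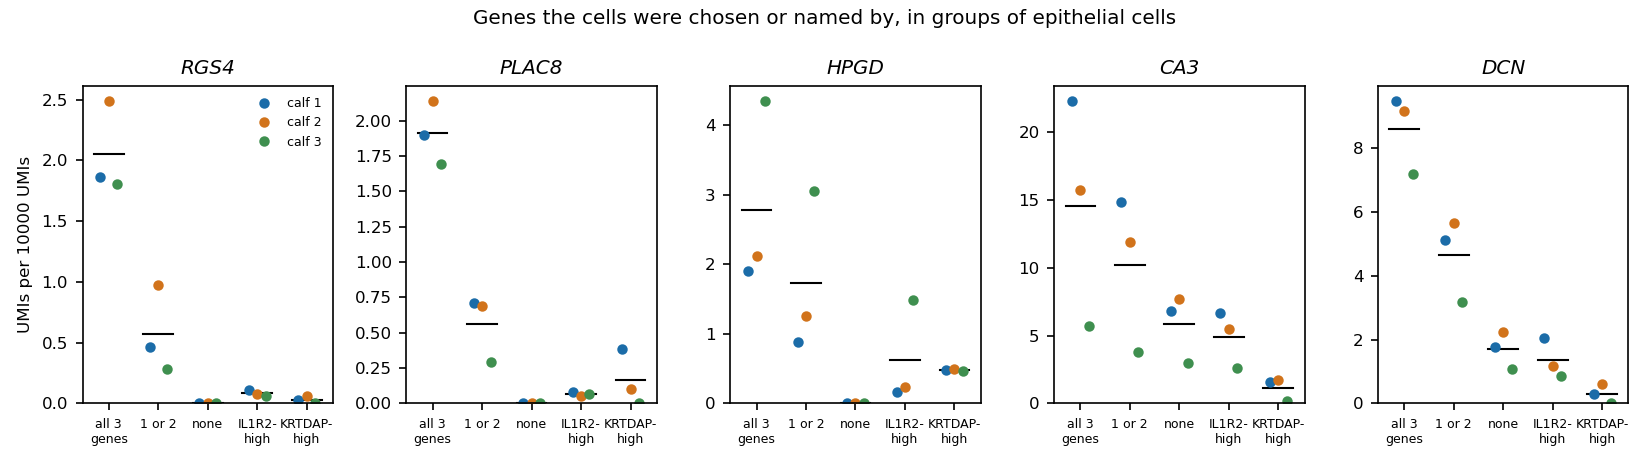
Summed UMIs per 10000 UMIs of RGS4, PLAC8, HPGD, CA3 and DCN (y axes, linear from 0) in 5 groups of epithelial cells (x axis), with a point per calf and a line at the mean. Cells with none of the 3 genes are at 0 for RGS4, PLAC8 and HPGD by the rule, and DCN in members (7.19 to 9.48) lies above its levels in that group (1.08 to 2.23).

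The 3 genes were also measured in cells outside the epithelial gate. *RGS4* was found after thinning in 0%, 0.77% and 0.42% of endothelial-gated cells of calves 1, 2 and 3, and in 0%, 16.9% and 11.5% of fibroblast-gated cells, whose summed level in calf 2, 2.38 per 10000, was close to that of members. *PLAC8* was in 23.1% of the immune-gated cells of calf 3, at 2.61 per 10000 against 1.69 in members. *HPGD* was at 0, 0.0588 and 0.680 per 10000 in fibroblast-gated cells of calves 1, 2 and 3, below its level in members of each calf. *RGS4*, *PLAC8* and *HPGD* were thus present in other cells too. *RGS5*, which marks mural cells, was at 0 to 0.00235 per 10000 in members. *EPCAM*, an epithelial adhesion molecule, was at 2.01, 1.72 and 1.19 in members and at 1.90, 1.55 and 1.27 in cells with none, with overlapping ranges.

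*CA3* and *DCN* were named with the cells, so their levels too are a description. *CA3* stood at 22.3, 15.7 and 5.74 UMIs per 10000 in members and at 6.78, 7.73 and 2.95 in cells with none. It was higher in members of each calf, with overlapping ranges, since calf 3 was low in both groups. *DCN* stood at 9.48, 9.16 and 7.19 in members and at 1.76, 2.23 and 1.08 in cells with none, or 5.38, 4.10 and 6.67 times higher by calf, and the ranges did not overlap. Few *COL1A1* UMIs accompanied *DCN* in members, and few did in cells with none. The gate left out cells with a *COL3A1* UMI and used *COL3A1* to choose the fibroblast-gated cells, so that a low ratio of collagen to *DCN* was in part set by it. Per 100 *DCN* UMIs, the *COL1A1* UMIs numbered 0.0472, 0.128 and 0.112 in members and 0.199, 1.03 and 1.53 in cells with none. In fibroblast-gated cells they numbered 117, 127 and 141. *LUM*, lumican, another proteoglycan of fibroblasts, numbered 0, 0.154 and 0.224 per 100 *DCN* UMIs in members and 0.0851, 0.895 and 1.92 in cells with none. In fibroblast-gated cells *LUM* numbered 42.4, 74.3 and 75.2.

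The keratins of the gate, also without a test, differed in the 2 groups. *KRT14*, a basal keratin, was at 5.09, 2.98 and 8.08 in members and at 16.4, 23.8 and 17.2 in cells with none, so that every calf was lower in members. *KRT5* was at 43.1, 27.7 and 39.2 against 56.6, 57.2 and 41.7. *KRT15* was lower in members of calves 1 and 2 (93.8 and 101 against 119 and 136) but not of calf 3 (104 against 93.0).

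Among the cells within the limits, each of the 3 genes was higher where the other 2 were present, a measure that overlaps the rule, since all UMIs of the third gene in such cells are those of members. *PLAC8* was 6.52, 6.84 and 5.24 times as high in cells with UMIs of both *RGS4* and *HPGD* as in cells with neither. *RGS4*, in the same way, was 6.5, 5.75 and 4.89 times as high, and *HPGD* 4.05, 3.36 and 2.15 times.

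Of the members, 110 had exactly 1 UMI of each gene and 196 had at least 2 of each. In the former, *DCN* was at 7.54, 7.31 and 4.43 per 10000. In the latter it was at 11.2, 9.26 and 7.60. Cells just outside, with 2 of the 3 genes, had *DCN* at 6.97, 7.59 and 5.20. *KRT8* was at 0.658, 0.785 and 0.440 in those cells and at 0.767, 0.986 and 0.613 in members. *S100A12*, a calcium-binding antimicrobial protein, was at 27, 15.8 and 11.4 in cells with 2 of the genes and at 9.12, 9.85 and 7.36 in members, and *KRT4*, a suprabasal keratin, at 9.04, 5.48 and 1.12 against 2.64, 2.86 and 0.496. *DCN* and *KRT8* thus differed less across the edge of the rule than *S100A12* and *KRT4* did in calf 1. A further 28, 30 and 27 cells carried all 3 genes but exceeded the chemokine limit, and their *KRT8* was 1.24, 1.42 and 0.859. The *IL1R2* limit left out 0, 6 and 12 such cells, the *KRTDAP* limit 0, 3 and 0, and no kept barcode with all 3 genes fell under the keratin limit. Above the limit of 4000 genes, 122 of 705, 13 of 147 and 36 of 509 epithelial barcodes carried all 3.

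Placed by their other genes, members were neighbours of members more often than their share, but not as a closed group. Cells were thinned to 2000 UMIs and the genes used by the rule were left out. Among the 20 nearest neighbours of a member, 16.9%, 12.1% and 6.22% were members in calves 1, 2 and 3, where members were 8.05%, 5.07% and 3.22% of cells. That is 2.10, 2.38 and 1.93 times their share. *IL1R2*-high cells were 2.27, 2.20 and 1.68 times and chemokine-high cells 3.38, 2.5 and 3.5 times as frequent around their own kind as over all. *KRTDAP*-high cells had 36.9% and 59.9% of their own kind around them in calves 1 and 2, or 25.5 and 38.2 times their share.

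Technical measures moved with the groups. Median depth was 11272, 7533 and 8279 UMIs in members against 10151, 6777 and 7583 in cells with none. The median mitochondrial share was 4.27%, 4.6% and 4.5% against 6.22%, 6.03% and 6.77%, lower in members of every calf with no overlap. Of the 13 mitochondrial coding genes, 12 fell in the test described next, with a median log2 difference of -0.84, and none rose. The rule used these genes for its limit on mitochondrial share, so their values too are a description. A doublet score removed 6.35%, 10.0% and 11.4% of members against 2.73%, 8.18% and 5.71% of cells with none. Barcodes shared between libraries numbered 21, 29 and 37 for the 3 pairs, and 6 members had theirs in another library. The part of depth and mitochondrial share in the results was not tested beyond the alternatives named below.

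Between members and cells with none, 2750 of 10649 genes tested passed an adjusted p of 0.05, or 25.8%. Of them 1354 were higher in members (12.7% of those tested) and 1396 lower (13.1%). UMIs were summed per calf and group and compared by edgeR's quasi-likelihood test with calf as a block and Benjamini-Hochberg adjustment. The block pairs cells of the same animal. Without it 19 genes passed, 6 higher and 13 lower. Comparison cells matched to members on depth gave 2237 calls. With each cell thinned to 2000 UMIs before the gate, 64 members were left and 261 genes passed, 1 higher and 260 lower. Of the genes named below, *KRT19*, *SPRY1*, *TOX3*, *PTGES*, *PTGES2*, *LAMA3*, *JUNB*, *FOS*, *GADD45B*, *JAG1*, *EGFR*, *FGF2*, *IGFBP5*, *ITPR2*, *PLCB4*, *IRF1*, *CD74*, *BOLA-DRA* and *FBLN1* turned direction there without passing the test. Log2 differences below are members minus the comparison group, and levels are summed UMIs per 10000 UMIs in calves 1, 2 and 3. The counts of each gene list against cells with none stand beside 12.7% of all genes higher and 13.1% lower.

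**Figure D2:**
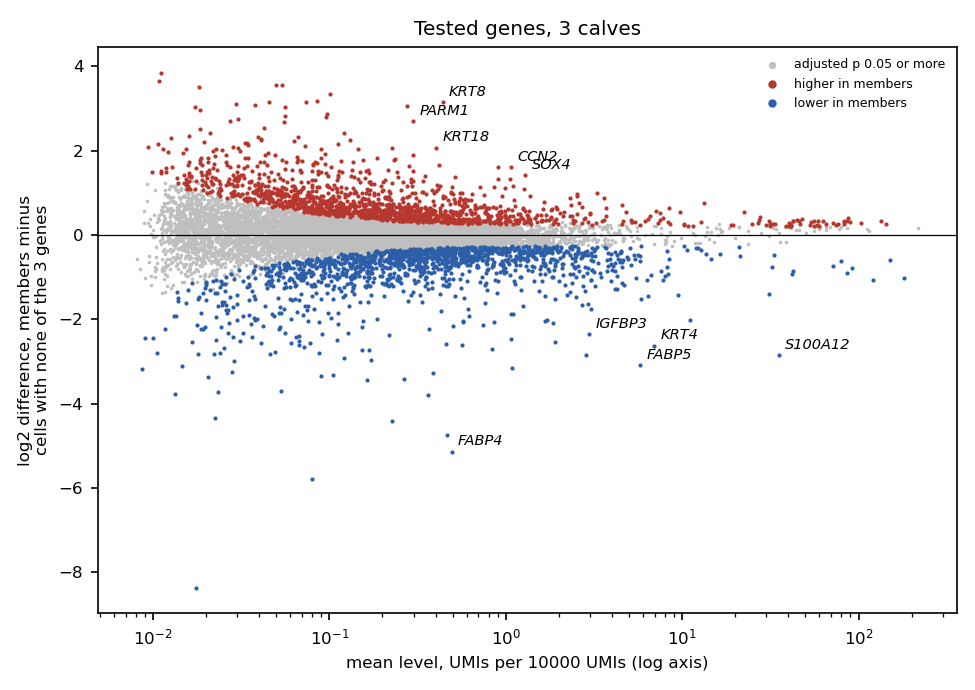
Log2 difference between members and cells with none of the 3 genes (y axis) against the mean level in UMIs per 10000 UMIs (x axis, log scale), one point per tested gene outside the rule, with the mitochondrial coding genes included. Of the tested genes 12.7% are coloured as higher and 13.1% as lower, and FABP4 lies below -4.

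Keratins of simple epithelia led the genes that were higher. *KRT8*, a keratin of single-layered epithelia, was at 0.767, 0.986 and 0.613 in members and at 0.0650, 0.0975 and 0.106 in cells with none (log2 difference 3.15 ± 0.15 SE, adjusted p = 1.21e-08). *KRT18*, its partner in the filament, was at 0.646, 0.993 and 0.319 against 0.110, 0.279 and 0.0793 (2.08 ± 0.14, adjusted p = 2.79e-07). The ranges of both genes were apart. After thinning to 2000 UMIs, *KRT8* was detected in 14.7% ± 1.60 of members and 1.89% ± 0.26 of cells with none (SD, n = 3), against 46.1% and 5.31% unthinned. In endothelial-gated cells *KRT8* was in 0% to 0.383% after thinning. The members in these shares were chosen at full depth and then thinned.

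Of the 6 simple-epithelium and wound keratins, 4 rose and 1 fell, beside 12.7% and 13.1% of all genes. *KRT19* rose (6.76, 2.03 and 1.00 against 4.20, 0.770 and 0.516), with calf 1 high in both groups, and *KRT7* rose by 0.93 on the log2 scale. *KRT17*, a keratin of wounds and hair follicles, was at 0.957, 1.65 and 1.39 against 2.29, 7.71 and 4.35 and fell by 1.76. The wound keratin thus went against the simple keratins. With cells thinned to 2000 UMIs before the gate, 5 keratins of the list were tested. There none passed as higher and 1 passed as lower, with a median of 0.24.

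Other genes that rose most were of several kinds. *PARM1*, a mucin-like membrane protein, was at 0.682, 0.615 and 0.262 against 0.0754, 0.108 and 0.0471 (2.71 ± 0.15, adjusted p = 3.77e-08). *SOX4*, a transcription factor of progenitor and developing cells, was at 1.23, 2.69 and 1.65 against 0.312, 1.19 and 0.675 (1.43 ± 0.13, adjusted p = 4.24e-06). *CCN2*, a matricellular protein and a known target of YAP and TGF-beta signalling, was at 0.159, 0.462 and 4.29 against 0.0390, 0.176 and 1.32, so calf 3 was far above the others in both groups (1.61 ± 0.12). *SPRY1*, which restrains receptor tyrosine kinase signalling, rose by 1.37. *TUBA1A*, an alpha tubulin, rose by 1.40 and *TSKU*, a secreted leucine-rich protein, by 1.16. *DIPK2A*, *TOX3* and *APP* rose by 1.34, 1.2 and 1.15. Of the 12 genes named as rising most, 9 had ranges that were apart, where 15.9% of all genes tested did. These genes were named for a large difference of the same sign in every calf, so the count is a description.

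The genes that fell most were of fatty acid handling and the antimicrobial and cornifying outer layers. *FABP5*, the epidermal fatty acid binding protein, was at 1.41, 0.768 and 1.36 in members against 11.1, 4.97 and 15.0 (-3.08 ± 0.13, adjusted p = 2.78e-09). *FABP4* was at 0.0179, 0.00704 and 0.0444 against 0.321, 0.0945 and 2.47 (-5.14 ± 0.25). Both genes were lower in every calf with ranges apart.

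*S100A12* was the most abundant gene in this set. It stood at 9.12, 9.85 and 7.36 in members and 68.4, 50.3 and 66.7 in cells with none (-2.85 ± 0.12, adjusted p = 5.16e-09). *S100A8* and *S100A7*, of the same family, fell by 2.84 and 2.70. *KRT4*, a keratin of the suprabasal layers of wet stratified epithelia, was at 2.64, 2.86 and 0.496 against 19.6, 12.7 and 3.34 (-2.62 ± 0.13, adjusted p = 1.19e-08). *IGFBP3*, a carrier of insulin-like growth factors, was at 0.820, 1.52 and 0.436 against 3.80, 9.63 and 1.66 (-2.35 ± 0.13). The lipid droplet protein *HSD17B13* fell by 3.27, *LYPD2* by 2.59, the mitochondrial creatine kinase *CKMT1A* by 2.54 and *ECM1* by 2.46. In all 12 genes named as falling most the ranges were apart, a description too, since they were named for their difference.

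**Figure D3:**
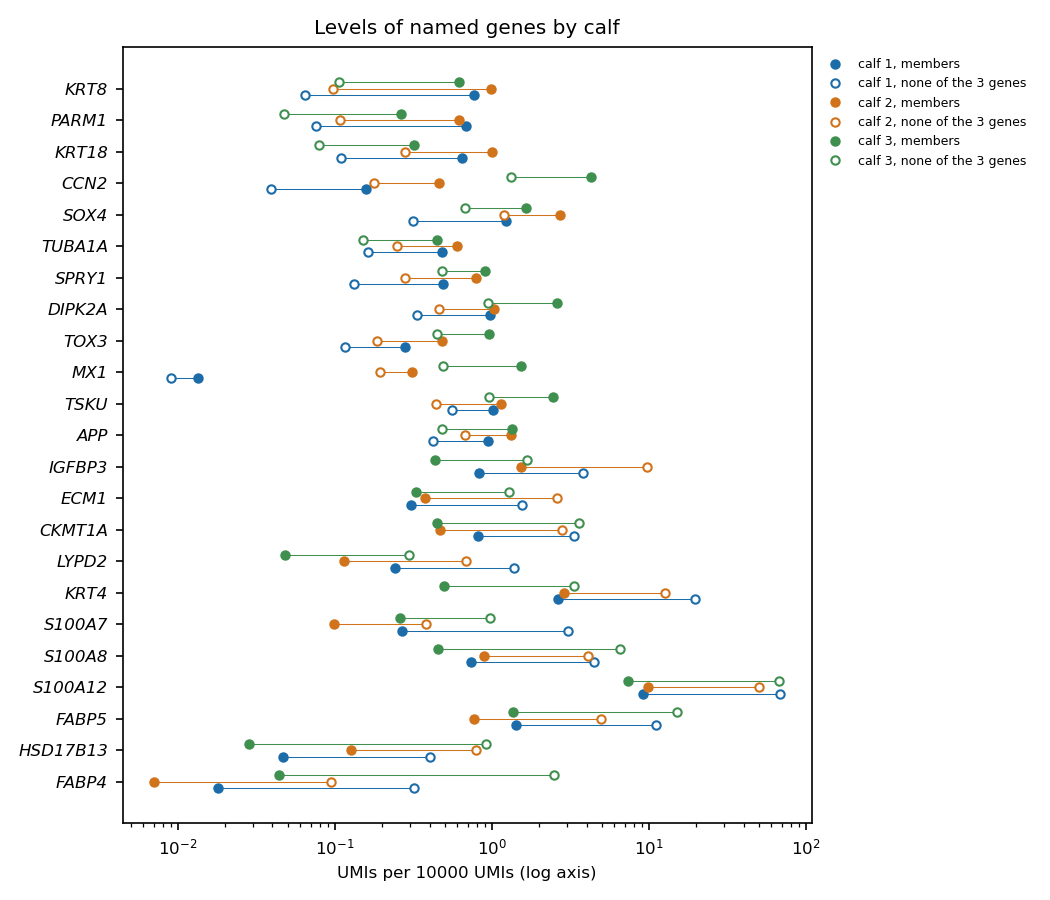
Levels of named genes in UMIs per 10000 UMIs (x axis, log scale), filled points for members and open points for cells with none of the 3 genes, joined within each calf. KRT8 rises in each calf and S100A12 falls from 50.3 to 68.4 to 7.36 to 9.85.

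The differences followed the number of the 3 genes in a cell. Between cells with 0, 1, 2 and 3 of them, 20 of the 24 named genes were in rising or falling order in all 3 calves, and the other 4 (*CCN2*, *SPRY1*, *FABP4* and *S100A7*) in 2 calves. These genes were named for their difference between the end groups, so the order is a description. *S100A12* went from 68.4 through 48.1 and 27 to 9.12 in calf 1, from 50.3 through 29.5 and 15.8 to 9.85 in calf 2, and from 66.7 through 34.7 and 11.4 to 7.36 in calf 3. Cells with 1 or 2 of the genes thus lay between the end groups.

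**Figure D4:**
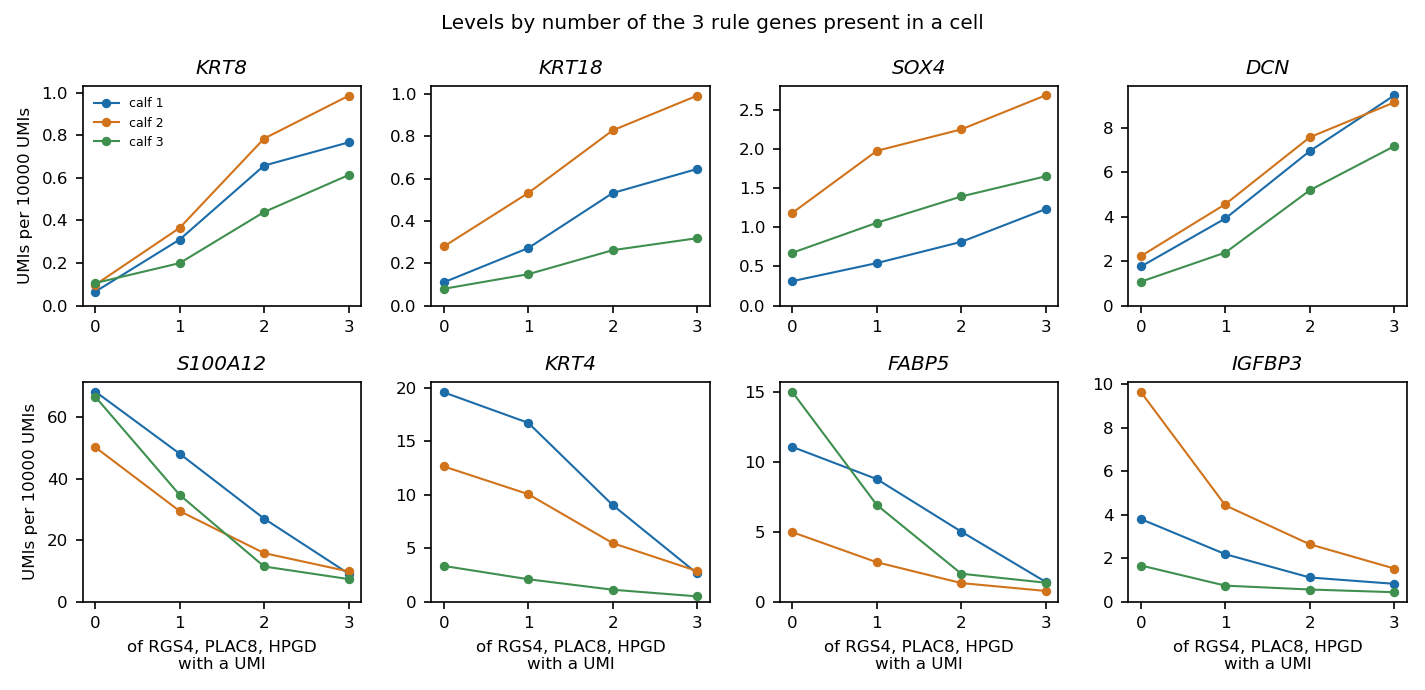
Levels of 8 genes in UMIs per 10000 UMIs (y axes, linear from 0) in epithelial cells with 0, 1, 2 or 3 of RGS4, PLAC8 and HPGD (x axis), one line per calf. KRT8, KRT18, SOX4 and DCN are higher and S100A12, KRT4, FABP5 and IGFBP3 lower with each further gene in every calf.

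Relatives of the 3 genes were few among the tested genes. Of 5 other RGS genes tested none passed, where 25.8% of all genes did, so these are too few to describe the family. *RGS19* was at 0.183, 0.110 and 0.182 against 0.161, 0.133 and 0.151. The median log2 difference of the 5 RGS genes was 0.41, against 0.03 over all genes. Of 13 prostaglandin enzymes, carriers and receptors, 1 rose and 2 fell, near the 12.7% and 13.1% of all genes. *PTGES*, a prostaglandin E synthase, was at 0.309, 0.561 and 0.315 against 0.0889, 0.430 and 0.124 (1.00 ± 0.21, adjusted p = 0.0028). *PTGS1*, the constitutive cyclooxygenase, was at 0.00894, 0.0164 and 0.0121 against 0.0440, 0.0650 and 0.0339 and fell by 2.02, and *PTGES2* fell by 0.89.

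*PLAC8B*, the neighbour and close relative of *PLAC8*, was at 0.00447, 0.385 and 1.05 in members and 0.000999, 0.0244 and 0.185 in cells with none (3.05 ± 0.24, adjusted p = 1.25e-06). It was nearly absent from calf 1 in both groups. Reads of the *PLAC8* relatives may have been split between them or dropped in counting, so that this value is uncertain. Of 9 carbonic anhydrases besides *CA3*, 2 rose and 2 fell, beside 12.7% and 13.1% of all genes. *CA8* rose by 2.07 (0.445, 0.437 and 0.226 against 0.0779, 0.104 and 0.0784), *CA5A* rose by 1.28, *CA1* fell by 2.92 and *CA12* fell by 1.46.

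Genes of differentiation and cornification mostly fell. Of 30 tested, 22 fell and none rose, with a median log2 difference of -1.75 against 0.03 over all genes. They included *S100A12*, *KRT4*, *ECM1* and *S100A9*, which was at 0.706, 0.676 and 0.444 against 2.05, 2.01 and 1.59. Of 22 transcription factors of stratified epithelium, 7 fell and 1 rose. *ZNF750* and *OVOL1*, which act in terminal differentiation, fell by 1.76 and 1.78, and *GRHL1* by 0.98. *KLF5*, a factor of proliferating epithelium, was at 1.96, 2.73 and 2.86 against 3.70, 3.59 and 3.83 and fell by 0.62.

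Attachment genes changed less. Of 17 hemidesmosome and basement membrane genes, 5 fell and 1 rose, with a median of -0.21. *COL17A1*, a hemidesmosome collagen of basal cells, was at 11.9, 12 and 10.9 against 18.8, 16.3 and 11.8 and fell by 0.45, a call lost without calf 1. *ITGA6*, an integrin of the same structure, was at 0.827, 0.777 and 0.867 against 1.28, 1.32 and 1.12 and fell by 0.64. *CD151* fell by 0.53 and *LAMA3*, a laminin chain, rose by 0.36, a call lost without calf 3.

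All 24 genes of the G2 and M phases fell, with a median of -1.08, and of 22 S phase genes 13 fell and 1 rose. *MKI67*, a marker of dividing cells, was at 0.481, 0.0728 and 0.282 against 0.781, 0.217 and 0.816 (-1.18 ± 0.16, adjusted p = 9.70e-05). Calf 2 was low in both groups, so the ranges overlapped although each calf was lower in members. *PRC1*, *TPX2* and *CENPF*, of the mitotic spindle and kinetochore, fell by 1.00, 1.12 and 1.31. Without a calf, 21 to 23 of the 24 fell, with DESeq2 12, with at least 2 UMIs of each gene 4 (median -0.65), and without the block or in the thinned gate none. With cells holding a UMI of *MKI67*, *TOP2A*, *CENPF*, *PCNA* or *MCM5* left out of both groups, 1068 genes passed in place of 2750. That kept 22.4%, 48.9% and 34.9% of members, and 17 of 23 differentiation genes still fell.

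**Figure D5:**
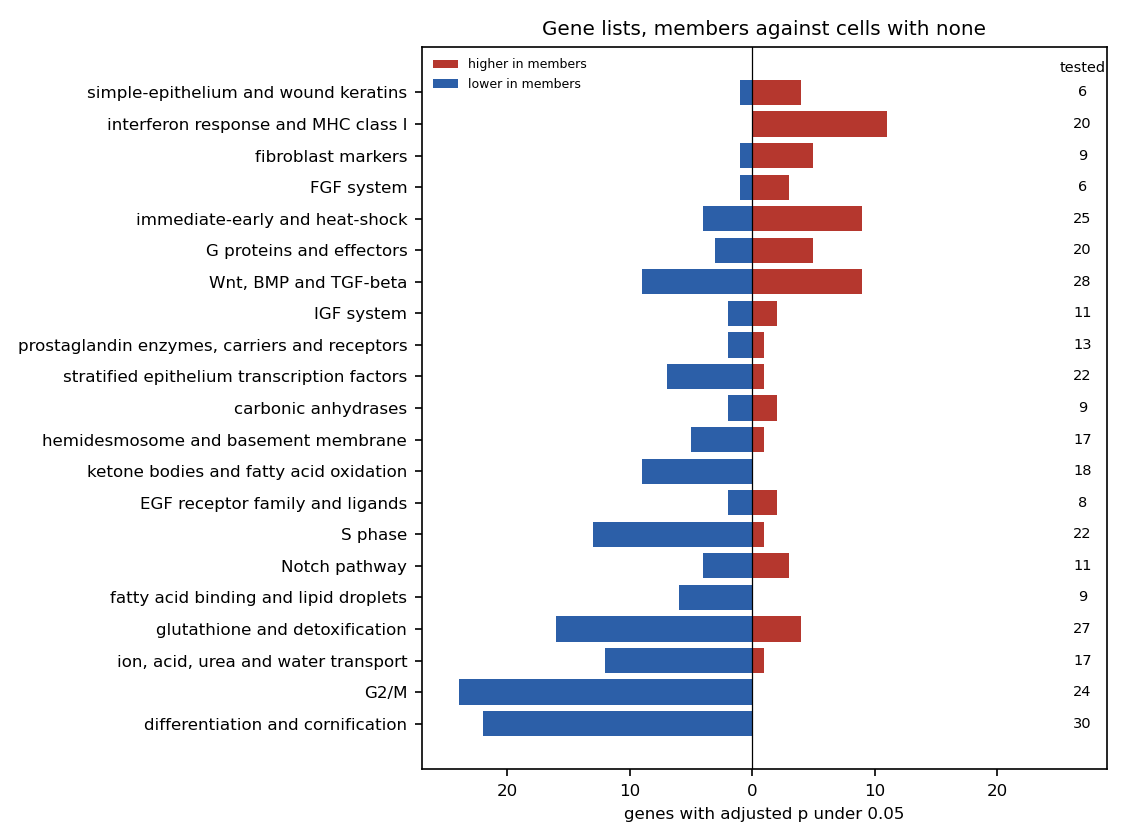
Genes with an adjusted p under 0.05 that were higher (right) or lower (left) in members than in cells with none of the 3 genes, for the lists with at least 6 genes tested (y axis), whose number is printed at the right. All 24 G2/M genes and 22 of 30 differentiation genes are lower, and 11 of 20 interferon and MHC class I genes are higher.

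Metabolic genes of the absorptive epithelium were mostly lower. Of 18 genes of ketone bodies and fatty acid oxidation, 9 fell and none rose. *BDH1*, which interconverts acetoacetate and beta-hydroxybutyrate, was at 0.0447, 0.0164 and 0.0363 against 0.176, 0.112 and 0.277 (-2.49 ± 0.22). *ETFDH* fell by 0.86. Of 9 genes of fatty acid binding and lipid droplets, 6 fell and none rose, *ELOVL6* and *PLIN3* by 0.77 and 0.56 besides the *FABP* genes above.

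Of 17 genes of ion, acid, urea and water transport, 12 fell and 1 rose, with a median of -0.94. *SLC14A1*, a urea transporter, was at 0.0648, 0.0305 and 0.0323 against 0.392, 0.136 and 0.352 (-2.72 ± 0.20, adjusted p = 5.38e-07). *SLC16A1*, the monocarboxylate transporter MCT1, was at 1.74, 0.608 and 1.45 against 3.95, 1.31 and 5.88 and fell by 1.48. The anion and bicarbonate transporters *SLC4A9* and *SLC4A7* fell by 2.60 and 1.45. Of 27 genes of glutathione and detoxification, 16 fell and 4 rose. *ALDH1A1*, which makes retinoic acid, fell by 2.15 (0.203, 0.0751 and 0.303 against 1.10, 0.334 and 0.993), and *TXN*, *MGST1* and *MGST3* fell by 1.27, 1.43 and 1.22.

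Signalling genes moved in both directions. Of 11 Notch pathway genes, 3 rose and 4 fell. *HEY1*, a Notch target, was at 0.163, 0.178 and 0.343 against 0.0395, 0.0251 and 0.120 (2.04 ± 0.21, adjusted p = 9.37e-06), and *JAG1*, a ligand, rose by 0.64. The receptor *NOTCH3* was at 0.0358, 0.0399 and 0.0121 against 0.149, 0.123 and 0.0966 and fell by 2.04, and *DLK2* fell by 0.56.

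Of 28 genes of Wnt, BMP and TGF-beta signalling, 9 rose and 9 fell. *TGFBR3*, a coreceptor for TGF-beta, was at 0.232, 0.263 and 0.153 against 0.0365, 0.0444 and 0.0595 (2.26 ± 0.21, adjusted p = 4.24e-06). *ID4* rose by 1.50 and *LGR6*, an R-spondin receptor of epithelial stem cells, by 1.21, while *ID1*, a BMP target, fell by 1.10. Of 6 FGF genes, 3 rose, *FGF2* by 1.65, *FGFR1* by 1.32 and *FGFR2* by 0.63, none of which passed in the thinned gate, where *FGF2* was at -0.19, and the FGF carrier *FGFBP1* fell by 2.14 (0.181, 0.237 and 0.371 against 0.836, 0.712 and 2.11). Of 8 genes of the EGF receptor family, 2 rose and 2 fell, beside 12.7% and 13.1% of all genes, *EGFR* rising by 0.60 and *ERBB2* falling by 0.61.

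Of 11 genes of the IGF system, 2 rose and 2 fell, near the 12.7% and 13.1% of all genes. *IGFBP5* was at 4.35, 2.58 and 3.60 against 3.5, 1.5 and 2.5 and rose by 0.50, opposite to *IGFBP3*. Of 20 G protein and effector genes, the class that RGS proteins act on, 5 rose and 3 fell. *ITPR2*, an inositol trisphosphate receptor, was at 1.66, 1.44 and 2.36 against 0.779, 0.765 and 1.28 (0.92 ± 0.09, adjusted p = 6.21e-06), and *PLCB4*, a phospholipase C, rose by 1.16.

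A part of the interferon and MHC class I genes were higher. Of 20 tested, 11 rose and none fell, with a median of 0.62. *IRF1*, an interferon-induced transcription factor, was at 0.302, 1.06 and 0.694 against 0.123, 0.444 and 0.352 (1.13 ± 0.10, adjusted p = 4.24e-06). *IFI6* was at 0, 0.467 and 3.83 against 0.000500, 0.214 and 0.899 (1.62 ± 0.18), and *MX1* at 0.0134, 0.310 and 1.54 against 0.00899, 0.193 and 0.485 (1.16 ± 0.18). *IFI6* and *MX1* were close to 0 in calf 1 and highest in calf 3. Without a calf, 8 or 9 of the 20 rose. Of 25 immediate-early and heat-shock genes, known to respond to tissue digestion, 9 rose and 4 fell: *JUNB*, *FOS* and *GADD45B* rose by 0.56, 0.58 and 0.52, and *HSPA1A* fell by 0.58.

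Markers of other cell types were low but not all level between the groups. The fibroblast, immune and endothelial lists each held a gate gene (*COL3A1*, *PTPRC* or *PECAM1*) that was at 0 by the rule. Low levels of these markers were thus in part set by the gate. The 16 fibroblast markers in the files summed to 1.90, 1.95 and 2.40 UMIs per 10000 in members and to 1.25, 1.45 and 1.47 in cells with none, with *COL6A3* and *PDGFRA* at 0 in members of every calf. Of the 9 tested, 5 rose and 1 fell. *SPARC* was at 0.434, 0.202 and 0.609 against 0.110, 0.149 and 0.238 and rose by 1.25, and *FBLN1* and *COL5A1* rose by 1.11 and 0.86, whereas *LUM* was at 0, 0.0141 and 0.0161 in members.

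The 12 immune markers summed to 0.262, 0.430 and 2.11 in members and to 0.278, 0.255 and 1.33 in cells with none, so calf 3 was high in both groups. *CD3E* was at 0 in all members. Of 5 tested, 2 rose and 1 fell. *CD74* was at 0.0782, 0.315 and 0.968 against 0.0425, 0.124 and 0.517 and rose by 1.02, a call lost with scored doublets removed (0.31, adjusted p = 0.515). *BOLA-DRA* was at 0.0134, 0.0329 and 0.839 against 0.0120, 0.0318 and 0.343. Its rise of 0.91 was 0.02 without calf 3 and became -1.08 with scored doublets removed.

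The 12 endothelial markers summed to 0.0872, 0.0775 and 0.0605 in members and to 0.110, 0.307 and 0.235 in cells with none. Of 3 tested, 2 fell and none rose. Both smooth muscle and mural markers tested, *NOTCH3* and *ACTA2*, fell, *ACTA2* by 1.69, a call lost without calf 3, where it was -1.29 (adjusted p = 0.079). The Schwann cell marker *S100B* rose by 1.00, a call lost without calf 1, and the haemoglobin gene *HBA* by 1.34, at 0.101 to 0.157 and 0.00671 to 0.0610 in members. The part of other cells in the results was not tested.

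The *IL1R2*-high epithelial cells (at least 5 *IL1R2* UMIs per 10000) numbered 309, 1253 and 1866 in calves 1, 2 and 3. Against them 1769 of 9677 genes passed (18.3%), 814 higher in members (8.41%) and 955 lower (9.87%). The ranges were apart for 14.9% of genes. Without the calf block 37 passed. With no scaling beyond the library totals, 60.1% of the calls were higher, in place of 46.0%. *KRT8* was at 0.0351, 0.0365 and 0.0413 in these cells, below its 0.613 to 0.986 in members (4.24 ± 0.18, adjusted p = 1.15e-09).

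*PARM1*, *KRT18*, *TUBA1A*, *KRT19* and *CCN2* were also higher in members, by 3.22, 2.84, 1.91, 1.73 and 1.38. *IGFBP3* was at 6.51, 12.5 and 1.87 in *IL1R2*-high cells and lower in members by 2.83 on the log2 scale. *HSD17B13*, *LYPD2*, *ECM1*, *CKMT1A* and *UGT1A1*, a glucuronosyltransferase, had log2 differences of -2.97, -2.60, -2.55, -2.47 and -2.23. Of 24 G2/M genes 3 rose and none fell here, beside 8.41% and 9.87% of all genes, with a median of 0.52 against 0.01 over all genes. Of 22 differentiation genes 10 fell and 1 rose.

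The *KRTDAP*-high cells (at least 10 *KRTDAP* UMIs per 10000) numbered 70, 160 and only 7 in calf 3. Against them 2264 of 8380 genes passed (27%), 1210 higher (14.4%) and 1054 lower (12.6%). The ranges were apart for 38.1% of genes. Without calf 1 there were 1276 calls and without calf 2 only 685, and without the block 1342. *SPINK5*, a protease inhibitor of the cornifying layers, was at 11.3, 14.2 and 11.2 in *KRTDAP*-high cells and at 0.0380, 0.0469 and 0 in members (-8.72 ± 0.42, adjusted p = 1.03e-91). That p-value rests on variance shared almost wholly across genes, not on how the difference in *SPINK5* varied between calves. *A2ML1*, a protease inhibitor, *GJB2*, a gap junction protein, *TMPRSS11BNL*, *BPIFA2C* and *C7H5orf46* had log2 differences of -8.30, -8.22, -8.49, -8.28 and -8.24. Members held 6 to 37 UMIs in all of each of these genes.

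*SOX4* was at 0.0750, 0.284 and 0 in *KRTDAP*-high cells and higher in members by 3.46 on the log2 scale. *PARM1*, *CCN2*, *S100A13* and *IRF1* were higher by 4.20, 3.55, 3.48 and 3.44. *KRT18* had 2 UMIs in all *KRTDAP*-high cells and 791 in members, a ratio of 92.5 with a 95% counting interval of 25.5 to 765. Of 29 differentiation genes 28 fell and none rose, with a median of -5.57 against 0.09 over all genes. Of 13 hemidesmosome and basement membrane genes 11 rose and 1 fell. Members thus had more of the attachment genes than *KRTDAP*-high cells in this test, and less of 5 of 17 of them than cells with none. The 2 groups were chosen to differ in *KRTDAP*, which the study lists among the markers of a spinous cell subtype. The direction of the differentiation and attachment lists in this comparison was thus in part set by the choice.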

How the data were processed

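Single-cell RNA sequencing was done on rumen tissue of 3 newborn calves, 1 library each. The deposited files hold UMI counts per gene and barcode, not normalized, which the authors made with Cell Ranger 3.1.0 on ARS-UCD1.2 from 3′ v3 libraries. The deposited matrices hold barcodes above the study's gene limit, so its limits on genes, UMIs and mitochondrial share were applied here. The main values keep possible doublets, and Scrublet scores (scanpy 1.11.5) were used only to remove them in an alternative. The members and gene lists were chosen with earlier results of these data known.

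UMIs were summed per calf and group and tested with edgeR 4.0.16 (quasi-likelihood, filterByExpr, TMM, calf as block because groups came from the same animals, Benjamini-Hochberg over all genes tested). Genes used by the rule, *CA3* and *DCN* stayed in the fit but out of the counts. The mitochondrial coding genes were an exception: the rule used them in its mitochondrial limit, but they stayed in the counts. A gene was tested if it passed filterByExpr, so members of lists at low counts were not. Against cells with none and *IL1R2*-high cells, p-values measure how the difference within a calf varied between 3 calves, with variance shared in part across genes. They do not measure the spread of levels between calves. Against *KRTDAP*-high cells, p-values were close to those of a normal distribution for the same ratio of difference to SE. Variance there was shared almost wholly across genes, so those p-values do not measure how each gene's difference varied between calves. Only 7 *KRTDAP*-high cells came from calf 3, which limits the p-values of that comparison. Named genes were the 12 highest and 12 lowest log2 differences (6 and 6 for the other comparisons) with adjusted p under 0.05, the same sign in 3 calves, at least 0.5 UMIs per 10000 in the higher group and a gene symbol, and for each list up to 4 genes of smallest adjusted p. *KRT7*, *RGS19* and *LUM* were added or chosen by level, and the mitochondrial list was set after its values were seen. Alternatives were DESeq2 1.42.0, other scaling, no filter, no block, leaving out a calf, doublets removed, thinned or depth-matched cells, and other gates. Sequences of the genes were not used here, and a few named genes are counted but not reported here. The analysis used Python 3.11.15 and R 4.3.3, and was tested on simulated counts.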

Additional observations from a re-analysis of the deposited data

How the results depend on the processing

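Members against cells with none gave 2750 calls. DESeq2 gave 1510, cells holding at least 2 UMIs of each gene 1331, cells thinned to 2000 UMIs before the gate 261 (1 higher and 260 lower), cells without UMIs of 5 cycling genes 1068, and cells with 1 or 2 of the genes as comparison 1092. The fit with no replicate block, which ignores the pairing by calf, gave 19. Leaving out a calf gave 1995 to 2383. Against *IL1R2*-high cells (1769) DESeq2 gave 869, no replicate block 37, and leaving out a calf 1314 to 1514. Against *KRTDAP*-high cells (2264) DESeq2 gave 1369, no replicate block 1342, and leaving out a calf 685 (calf 2) to 2423. The share of epithelial cells that were members, 5.29%, became 1.04% with at least 2 UMIs of each gene, and 4.04% to 6.37% without a calf. The thinned share, 0.303%, became 1.51% at 4000 UMIs and 0.396% with another random seed. The cause was not tested. Leaving out cells with cycling genes and no scaling were chosen after seeing the data.

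The thinned gate left 64 members, and the median log2 difference of all genes there was -0.50. Of 99 named genes fitted in it, 27 stayed called or stayed uncalled, 50 kept only their direction and 22 reversed, with no reversed gene passing the test. These were *SPRY1* (-0.61), *TOX3* (-0.36), *PTGES2* (0.033), *PTGES* (-0.087), *LAMA3* (-0.52), *KRT19* (-0.077), *TYMS* (-0.25), *JUNB* (-0.30), *FOS* (-0.23), *GADD45B* (-0.47), *JAG1* (-0.63), *IGFBP5* (-0.12), *EGFR* (-0.81), *FGF2* (-0.19), *ITPR2* (-0.19), *PLCB4* (-0.40), *IRF1* (-0.78), *CD74* (-0.33), *CD14* (0.10), *FBLN1* (-0.36), *FBLN2* (-0.29) and *BOLA-DRA* (-1.19). *BOLA-DRA* was also -1.08 with doublets removed and -1.61 with at least 2 UMIs of each gene. Among named genes that passed in the main fit or in the alternative, no other reversed. Changes of sign in genes that passed in neither were not counted. With no replicate block, 100 of 109 named genes kept their direction and lost the call. RLE factors and no scaling left all 109 called or uncalled as in the main fit, and depth-matched cells 102 of 103.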

Other observations

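Ribosomal protein genes, a list set after the values were seen, were more often higher than lower in members against cells with none: of 80 tested, 43 rose and 3 fell, with a median log2 difference of 0.22.

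In the shares that follow, members were chosen at full depth and then thinned. After thinning each cell to 2000 UMIs, *DCN* was found in 75.1% ± 4.93 of members and 25% ± 7.33 of cells with none (SD, n = 3), against 97.6% and 47.4% unthinned. *S100A12* was found in 53.4% ± 4.69 of members and 87.5% ± 4.27 of cells with none. Outside the epithelium it was found in 28.0% ± 11.4 of endothelial-gated, 32.4% ± 16.0 of immune-gated and 53.7% ± 25.5 of fibroblast-gated cells. The mean share in members was thus above that of endothelial-gated and immune-gated cells but not above that of fibroblast-gated cells. In calf 1 the fibroblast-gated share was 80% of only 5 thinned cells. *KRT4* was found in 17.8% ± 10.2 of members and 50.8% ± 25.1 of cells with none, with wide spread between calves.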
